A study of Mus musculus with 6 samples.

Results

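The transcripts described here encode 10 proteins grouped as FYVE domain endosomal proteins: Eea1, Wdfy1, Wdfy2, Wdfy3, Wdfy4, Hgs, Zfyve16, Zfyve26, Rufy1 and Pikfyve, out of 19938 genes with a named transcript on the array. Wdfy1 and Eea1 were chosen for their strain difference in these same arrays, and the other 8, called relatives here, are compared with them. For each gene the transcript cluster (all probes that the array assigns to 1 gene region) with the highest mean over the 6 arrays was taken. The arrays measured CD4+TCRβ+ T helper cells sorted from the lymph nodes of naive females aged 8 weeks. There were 3 arrays of C57BL/6J (B6) and 3 of B6-ChrY SJL, a consomic strain that carries the Y chromosome of SJL on the B6 background. Each array held a pool from 5 mice, and 50 ng of RNA was amplified. Females carry no Y chromosome, so the groups differ in the Y chromosome of their fathers and are otherwise taken to share the B6 genome. The mice were untreated and came from litters of mixed sex.

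The FYVE domain is a small zinc-binding fold that recognises phosphatidylinositol 3-phosphate (PI3P), the lipid that marks the cytosolic face of early endosomes and of forming autophagosomes. PI3P is made there by the kinase VPS34, and proteins that bind it tether, sort, recycle or move the vesicles. In T helper cells these compartments take up and return the T cell receptor and cytokine receptors, and deliver others to the lysosome for degradation. Of the proteins treated here, EEA1 tethers early endosomes to each other as an effector of the GTPase RAB5. RUFY1 acts with RAB4 and RAB14 in recycling, HGS is the subunit that starts the ESCRT sorting pathway, and PIKFYVE is the kinase that adds a further phosphate to PI3P. The WDFY proteins combine WD repeats with the FYVE or a related domain, and WDFY1 has been linked to signalling from the toll-like receptors TLR3 and TLR4.

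Promoter sequence was examined for the 3 members whose B6-ChrY SJL pools all lay under their B6 pools, Eea1, Zfyve26 and Rufy1. They were 30.0% of the members, beside 9.42% of all tested transcripts, and Eea1 was chosen on this contrast. The nearest pools of Zfyve26 and Rufy1 were only 0.016 and 0.06 apart on the log2 scale, and neither gene passed a false discovery rate of 0.05. The 250 bases upstream of each RefSeq start (GRCm38.p6) are given from 5′ to 3′ along the gene's strand. Capitals mark matches, on either strand, to any of 6 short motifs. The GC box was searched as GGGCGG and the E-box as CACGTG. The motif CCAAT gives its box its name. The core bound by CREB proteins was searched as TGACG, that of the ETS factors as CCGGAA and the TATA box as TATAAA. Matches to different motifs were counted independently where they overlapped.
Eea1 (chr10:95940413-95940662, + strand): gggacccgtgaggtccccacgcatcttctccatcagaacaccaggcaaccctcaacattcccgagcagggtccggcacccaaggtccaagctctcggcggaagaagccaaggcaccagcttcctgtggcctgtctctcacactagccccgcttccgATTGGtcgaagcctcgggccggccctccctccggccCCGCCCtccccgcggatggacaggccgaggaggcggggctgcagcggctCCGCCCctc
Zfyve26 (chr12:79296283-79296532, - strand): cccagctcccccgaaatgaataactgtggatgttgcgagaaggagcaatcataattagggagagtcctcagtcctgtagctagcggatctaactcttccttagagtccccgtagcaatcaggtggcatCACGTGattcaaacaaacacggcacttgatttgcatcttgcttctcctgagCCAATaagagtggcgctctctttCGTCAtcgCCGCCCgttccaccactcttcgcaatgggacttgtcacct
Rufy1 (chr11:50431126-50431375, - strand): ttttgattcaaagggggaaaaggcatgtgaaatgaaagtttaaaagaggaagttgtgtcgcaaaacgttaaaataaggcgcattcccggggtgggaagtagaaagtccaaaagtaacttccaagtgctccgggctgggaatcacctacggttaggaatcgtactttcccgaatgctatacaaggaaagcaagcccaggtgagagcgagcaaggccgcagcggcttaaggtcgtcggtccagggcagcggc
The Eea1 window held 19 CpG dinucleotides, with 2 GC boxes and 1 CCAAT box. The Zfyve26 window held 12 CpG dinucleotides and 1 match each to the E-box, CREB core, GC box and CCAAT box. The Rufy1 window held 14 CpG dinucleotides and no match to any of the 6 motifs. No motif was therefore found in all 3 windows. Over 32851 promoter windows of the same length the median was 6 CpG dinucleotides, and a GC box was found in 32.7%, a CCAAT box in 33.8%, a CREB core in 17.8%, a TATA box in 12.4%, an ETS core in 12.0% and an E-box in 6.02%. Entries matched 8 of the 10 members. Wdfy1 and Wdfy3 had none. The windows of Wdfy2, Wdfy4, Hgs, Zfyve16 and Pikfyve held 20, 5, 22, 24 and 13 CpG dinucleotides. A GC box and a CCAAT box were both found for Wdfy2, Hgs and Pikfyve, a CCAAT box without a GC box for Wdfy4, and neither for Zfyve16.

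The values are log2 values from robust multi-array averaging (RMA), so a difference of 1 is a doubling. Array medians lay between 6.41 and 6.44 and correlations between arrays between 0.991 and 0.993. The background level, 5.98, was the 95th percentile of the mean values of 1212 odorant and vomeronasal receptor transcripts. The mean of all 10 members exceeded it, and 9 members exceeded it on every array. Cd4 and Cd3e, the defining T helper transcripts, were at 11.54 and 12.49 in B6, against 11.51 and 12.50 in B6-ChrY SJL, well above background. Of 15 B cell markers 10 had means above background, among them Cd74 (8.16), H2-Aa (7.58) and Cd79b (7.43), while Ms4a1 (5.04) lay below it. Of 10 dendritic cell markers 4 had means above background, among them Irf8 (7.65), while Xcr1 (5.05) and Clec9a (4.43) lay below it. In such sorted pools, fewer cells of a type and less RNA per cell cannot be told apart.

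Eea1 lay on chromosome 10. Its RMA value was 6.65, 6.76 and 6.84 in the 3 B6 pools and 6.17, 6.26 and 6.20 in the 3 B6-ChrY SJL pools. Every B6-ChrY SJL pool was under every B6 pool, with a gap of 0.40 between the nearest pools. Mean log2 values were 6.75 ± 0.10 (SD, n = 3) and 6.21 ± 0.04 (SD, n = 3), a log2 difference of −0.54 (SE 0.07, 95% interval −0.71 to −0.38), or 1.46-fold lower in B6-ChrY SJL. Although low in B6-ChrY SJL, the transcript remained above background in all 3 pools.

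Wdfy1, on chromosome 1, moved the other way. Its RMA value was 6.43, 6.59 and 6.72 in the B6 pools and 7.35, 7.43 and 7.20 in the B6-ChrY SJL pools. Every B6-ChrY SJL pool was over every B6 pool, with 0.48 between the nearest. Mean log2 values were 6.58 ± 0.14 (SD, n = 3) and 7.33 ± 0.12 (SD, n = 3), a log2 difference of 0.75 (SE 0.09, 95% interval 0.53 to 0.96), or 1.68-fold higher in B6-ChrY SJL.

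Both genes were among the 17 transcripts (0.0726% of 23410 tested) with a limma false discovery rate (FDR) under 0.1. They were chosen with this contrast in view, so their differences are a description and carry no test here. At an FDR under 0.05, 4 transcripts (0.0171%) were called and neither gene was among them. As a description only, both were past an FDR of 0.05 with a variance trend or a filter on dim clusters. Neither was past an FDR of 0.1 without moderation, with all deposited clusters or with a replicate block. In all, 0.282% of the tested transcripts had a difference at least as large as that of Eea1 in either direction, and 0.103% at least as large as that of Wdfy1. The median size over all tested transcripts was 0.08 on the log2 scale.

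**Figure D1:**
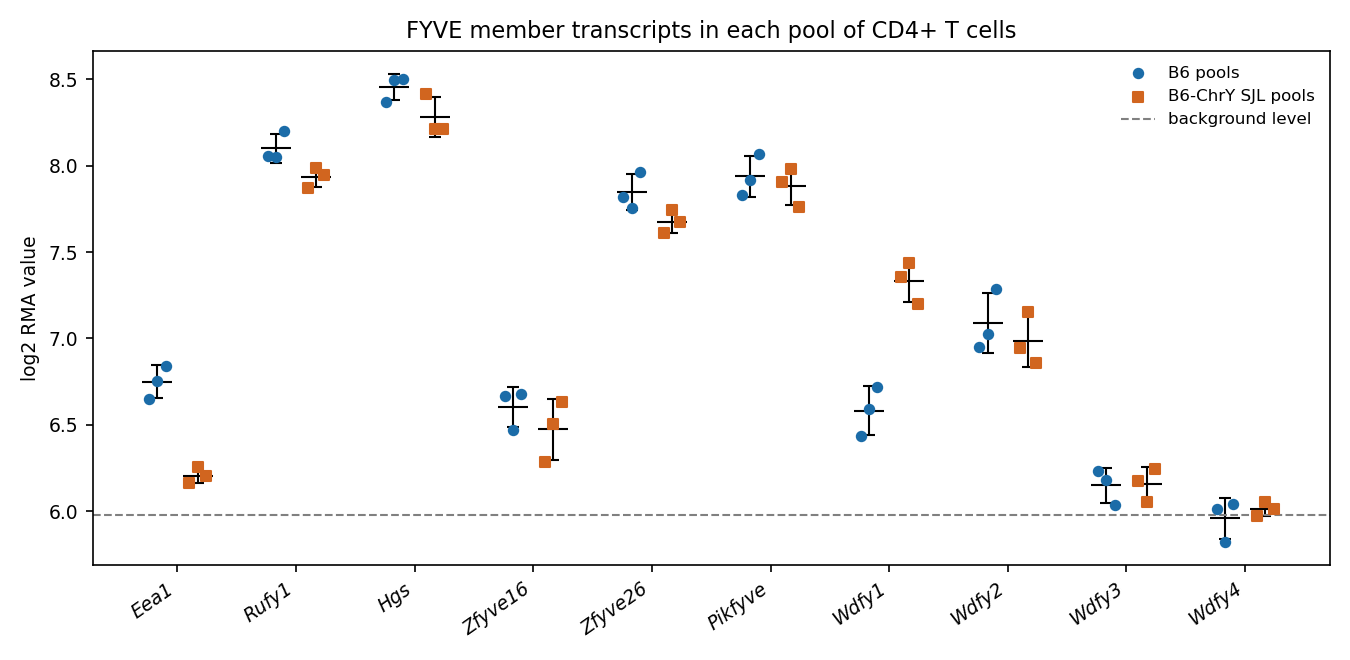
RMA log2 value (vertical axis) of each FYVE member (horizontal axis) in each B6 pool (circles) and each B6-ChrY SJL pool (squares), with the group mean and SD as lines and the background level of 5.98 dashed. The groups stand clear of each other for Eea1 and Wdfy1, by 0.40 and 0.48, while for the relatives they overlap or lie within 0.06 of each other.

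None of the 8 relatives passed an FDR of 0.05, and their limma adjusted p ran from 0.466 to 0.976. Their log2 differences lay between −0.18 and 0.05 with a median of −0.12, against a median of −0.0036 over all tested transcripts, and 6 were negative and 2 positive. Among the relatives, 1 (Rufy1) was lower at an unadjusted p under 0.05, where 5.92% of all tested transcripts were lower and 4.69% higher. This count was 0 without B6 pool 3 or B6-ChrY SJL pool 3, and 2 without B6-ChrY SJL pool 2. The pools of the 2 strains did not overlap for 2 relatives, both lower in B6-ChrY SJL, where 9.42% of all tested transcripts were lower and 7.68% higher without overlap. The 95% intervals of the relatives stayed between −0.37 and 0.23, so a difference as large as that of Wdfy1 or Eea1 lay outside each of them. Wdfy1 stood 0.87 above the median difference of the relatives and Eea1 0.42 below it on the log2 scale. The difference of Wdfy1 was 4.24 times, and that of Eea1 3.07 times, the largest among the relatives. Because both were chosen on this contrast, this distance carries no test.

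**Figure D2:**
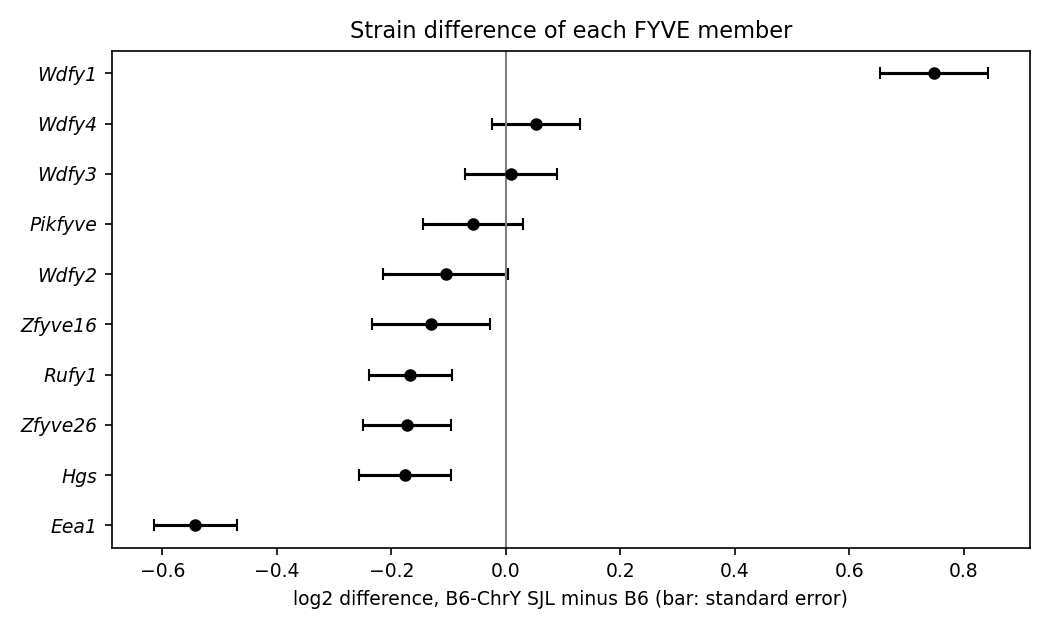
Log2 difference between B6-ChrY SJL and B6 pools (horizontal axis, B6-ChrY SJL minus B6) for each FYVE member, with its standard error as a bar. Wdfy1 lies at 0.75 and Eea1 at −0.54, and the 8 relatives lie between −0.18 and 0.05.

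Of the relatives that act on early and recycling endosomes, Rufy1 came nearest to the threshold. Its RMA values were 8.06, 8.05 and 8.20 in B6 pools and 7.87, 7.99 and 7.94 in B6-ChrY SJL pools. The groups did not overlap, but the nearest pools were only 0.06 apart. Its log2 difference was −0.17 (SE 0.07, limma adjusted p = 0.466). Hgs, which captures ubiquitinated receptors for degradation, had values of 8.37, 8.49 and 8.50 in the B6 pools, against 8.41, 8.21 and 8.21 in the B6-ChrY SJL pools. B6-ChrY SJL pool 1 lay within the B6 pools, and the log2 difference was −0.18 (SE 0.08, limma adjusted p = 0.484). Zfyve16 (endofin), an early endosomal protein that resembles the SMAD anchor SARA, had values of 6.67, 6.47 and 6.68 in the B6 pools, against 6.29, 6.51 and 6.64 in the B6-ChrY SJL pools. These groups overlapped, with a log2 difference of −0.13 (SE 0.10, limma adjusted p = 0.687). It was −0.04 without B6-ChrY SJL pool 1, −0.20 without B6 pool 2 and −0.21 without B6-ChrY SJL pool 3.

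Zfyve26 (spastizin), which works with spatacsin in the renewal of lysosomes, was at 7.82, 7.76 and 7.96 in B6 pools and 7.61, 7.74 and 7.67 in B6-ChrY SJL pools. The groups were separate by a gap of only 0.016, and the log2 difference was −0.17 (SE 0.08, limma adjusted p = 0.480), or −0.11 without B6 pool 3. Pikfyve had values of 7.83, 7.92 and 8.07 in the B6 pools, against 7.91, 7.98 and 7.76 in the B6-ChrY SJL pools. These pools were interleaved, and the log2 difference was −0.06 (SE 0.09, 95% interval −0.26 to 0.14), with a positive sign without B6 pool 3 or B6-ChrY SJL pool 3.

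The closest namesakes of Wdfy1 did not share its difference in size. Wdfy2, which binds the kinase AKT on endosomes, had values of 6.95, 7.03 and 7.29 in the B6 pools, against 6.95, 7.15 and 6.86 in the B6-ChrY SJL pools. Its groups overlapped, and the log2 difference was −0.10 (SE 0.11, 95% interval −0.35 to 0.15, limma adjusted p = 0.768). Without B6 pool 3 it was −0.0059, without B6-ChrY SJL pool 3 −0.04, without B6 pool 1 −0.17 and without B6-ChrY SJL pool 2 −0.19. Wdfy3 (ALFY), a BEACH domain adaptor of the autophagy of protein aggregates, had values of 6.23, 6.18 and 6.04 in the B6 pools, against 6.18, 6.06 and 6.25 in the B6-ChrY SJL pools. It was the member nearest to no difference, with a log2 difference of 0.01 (SE 0.08, 95% interval −0.18 to 0.19) whose sign turned under other scalings. Wdfy4, needed for cross-presentation by dendritic cells, had values of 6.02, 5.83 and 6.04 in the B6 pools, against 5.97, 6.06 and 6.02 in the B6-ChrY SJL pools. It exceeded background on 4 of 6 arrays, and its log2 difference was 0.05 (SE 0.08, 95% interval −0.12 to 0.23), negative without B6 pool 2. A further cluster of Wdfy3 (mean 4.78) and of Wdfy4 (mean 5.78) lay below background and was not used.

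The order of the pools within each strain was read for each member. B6 pool 3 was the highest B6 pool for 9 of the 10 members, all but Wdfy3, where it was the lowest. Over all tested transcripts it was the highest for 35.1%, and for 37.1% of those above background. B6-ChrY SJL pool 2 was the highest of its group for 7 members, namely Eea1, Wdfy1, Wdfy2, Wdfy4, Zfyve26, Rufy1 and Pikfyve, against 32.8% of all tested transcripts and 39.7% of those above background. The SD of the members among pools was 0.07 to 0.17 in B6 and 0.04 to 0.18 in B6-ChrY SJL, with medians of 0.11 and 0.10 against 0.09 over all tested transcripts in each strain.

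Across the 6 arrays Wdfy1 and Eea1 ran against each other, with Pearson's r = −0.89, a value that includes the strain difference they were chosen on. After the mean of each strain was subtracted, r between the pair was 0.81. In B6, both genes rose from pool 1 to pool 2 and from pool 2 to pool 3. In B6-ChrY SJL, pool 2 was the highest for both genes. There, pool 3 had less Wdfy1 than pool 1 (7.20 against 7.35) but more Eea1 (6.20 against 6.17). On that scale Wdfy1 was most like Pikfyve among the members (r = 0.98) and Eea1 most like Wdfy2 (r = 0.85), followed by Rufy1 (r = 0.83). Not all members ran with Wdfy1 and Eea1. Wdfy3 ran opposite, with r = −0.94 to Wdfy1 and −0.82 to Eea1, Wdfy4 was at 0.09 and 0.18, and Zfyve16 at −0.29 and 0.18. Hgs was at 0.48 with Wdfy1 and 0.16 with Eea1. These correlations rest on 6 arrays that share RNA amplification and normalization within each pool, and are given as a description.

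Markers of other cells were read beside these differences. The mean of 15 B cell markers was 6.13 to 6.21 in B6 pools and 6.09, 6.45 and 6.58 in B6-ChrY SJL pools 1, 2 and 3. In pools 1, 2 and 3 of B6-ChrY SJL, Wdfy1 was at 7.35, 7.43 and 7.20 and Eea1 at 6.17, 6.26 and 6.20. Of the B cell markers 4 (26.7%) were higher and none lower at an unadjusted p under 0.05. Over all tested transcripts 4.69% were higher and 5.92% lower. The median log2 difference of the B cell markers was 0.20. The mean of 7 CD8 and natural killer markers was 6.06 to 6.20 in B6 and 5.97 to 6.01 in B6-ChrY SJL. For stromal and vessel markers the ranges were 6.73 to 6.78 and 6.81 to 6.87. The CD8 and stromal sets were separate between the strains. At an unadjusted p under 0.05, 2 CD8 and natural killer markers (28.6%), Cd8a (−0.54) and Cd8b1 (−0.28), were lower and none higher. Of the 7 markers, 6 had a negative log2 difference, with Ncr1 at −0.0064, and 1, Eomes, a positive one (0.11). Means of 3 of the 7 lay at or below background. Of the stromal and vessel markers 3 (37.5%) were higher and none lower at an unadjusted p under 0.05. The part of all these marker sets in the differences of Eea1 and Wdfy1 was not tested. The means of dendritic cell markers (5.77 to 5.96 in B6, 5.83 to 5.89 in B6-ChrY SJL), of myeloid markers (5.52 to 5.67 and 5.50 to 5.58) and of erythroid markers (5.96 to 6.16 and 6.01 to 6.12) overlapped, as did those of T helper markers (11.47 to 11.49 and 11.45 to 11.48).

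Around the members, 149 of 155 genes in 10 lists of endosomal and related pathways were measured. None passed an FDR of 0.05 by limma, with 1 gene higher and 9 lower at an unadjusted p under 0.05, or 0.671% and 6.04% of the list genes beside 4.69% and 5.92% of all tested transcripts. Without B6 pool 3, 4 list genes were higher, and without B6-ChrY SJL pool 3, 2. Pools did not overlap for 6 genes that were higher and 20 that were lower, or 4.03% and 13.4%, beside 7.68% and 9.42% over all tested transcripts. The median log2 difference of the list genes was −0.03.

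Of 20 other FYVE proteins, 1 (5.0%) was lower at an unadjusted p under 0.05, beside 5.92% of all tested transcripts. The gene was Fyco1, an adaptor that carries autophagosomes along microtubules, with a log2 difference of −0.21 (SE 0.08, limma adjusted p = 0.417). The next by p, Fgd3 and Fgd4, exchange factors for CDC42, were each at −0.13, and Fgd4 lay below background. The list had a median of −0.06 and 5 of its genes were lower and 1 higher without overlap, or 25.0% and 5.0%, beside 9.42% and 7.68% of all tested transcripts.

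Among 19 genes for the synthesis and turnover of PI3P, the lipid that the FYVE domain recognises, the median log2 difference was −0.03. The lowest p was that of Inpp4a, a phosphatase that yields PI3P, at −0.19 (SE 0.07, limma adjusted p = 0.408). Vac14, the scaffold of PIKFYVE, was at −0.14 and Becn1, a subunit of the VPS34 complex, at −0.12.

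Among 24 genes of RAB5 and early endosome fusion, a list of RAB5 regulators and effectors, SNAREs, sorting nexins and retromer subunits, none reached an unadjusted p of 0.05 in either direction, and the median was −0.04. The RAB5 genes lay on both sides of 0, with log2 differences of 0.14 for Rab5a, −0.19 for Rab5b and −0.04 for Rab5c. Their pools overlapped for all 3 genes, and the limma adjusted p was 0.599, 0.597 and 0.877. Rin2, an exchange factor for RAB5, was at −0.20 and Vps45, a regulator of endosomal SNAREs, at −0.18.

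The recycling list, 15 genes with a median of 0.02, held Rab4a, the GTPase that RUFY1 binds. Rab4a was at 6.98, 6.50 and 6.78 in B6 pools and at 7.94, 8.19 and 7.60 in B6-ChrY SJL pools. Its pools did not overlap, and the log2 difference of 1.16 (SE 0.16) was the largest of the list genes. It had a limma adjusted p of 0.102, and with a mean-variance trend in the fit 0.00437, the lowest of 15 alternatives, over which it reached 0.379. Ehd4, an ATPase of recycling tubules, was at −0.32 with overlapping pools, and Rab11a, of the slower recycling route, at 0.10.

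**Figure D3:**
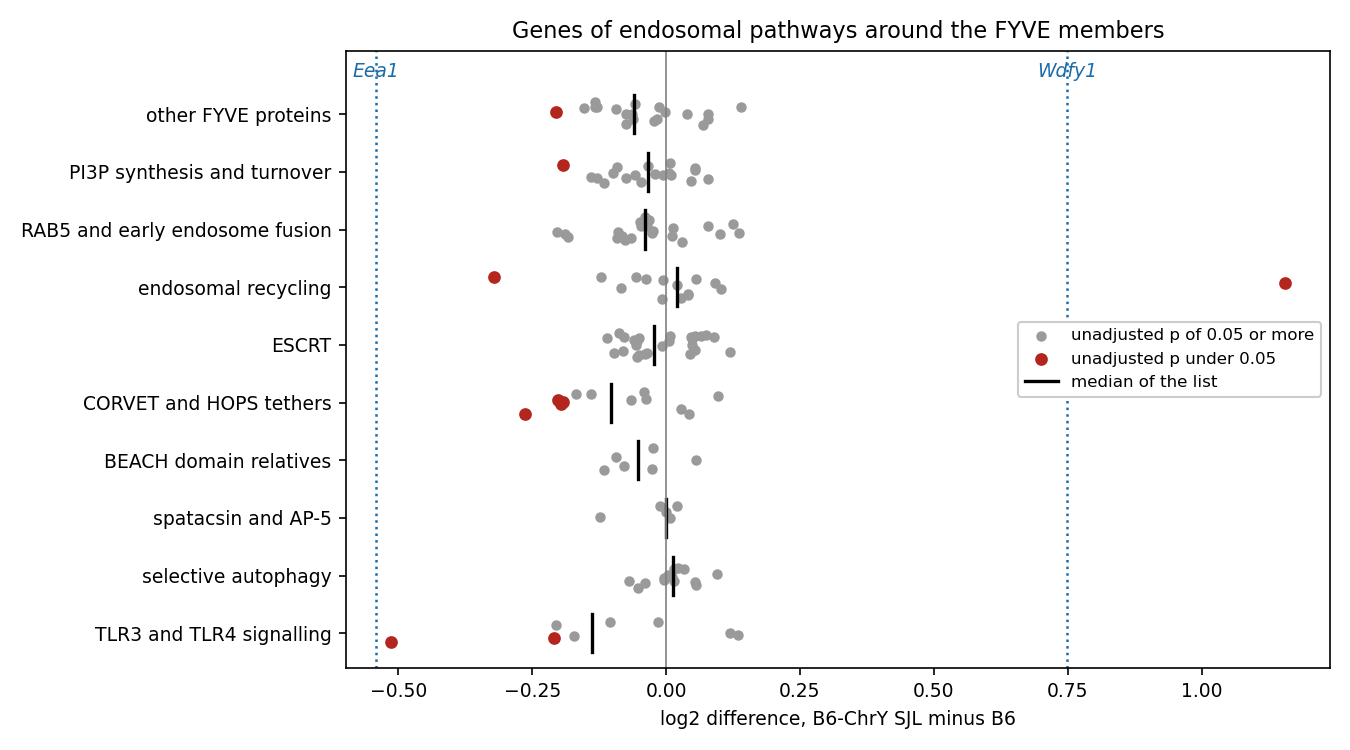
Log2 difference (horizontal axis, B6-ChrY SJL minus B6) of each measured gene of the 10 endosomal lists (rows), with larger dark red points for an unadjusted limma p under 0.05, the median of each list as a bar, and dotted lines at Eea1 and Wdfy1. Rab4a, at 1.16, lies beyond Wdfy1, and the medians of the lists lie between −0.14 and 0.02.

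The list for CORVET and HOPS, which tether early and late endosomes, and for genes related to them held 12 measured genes. Among them, 4 (33.3%) were lower at an unadjusted p under 0.05, beside 5.92% of all tested transcripts. None were higher, and the median was −0.10. Log2 differences were −0.20 for Vps39, −0.20 for Vps16 and −0.19 for Vps11, all 3 without overlap, and −0.26 for Tgfbrap1 with overlap. Their limma adjusted p ran from 0.373 for Vps39 to 0.459 for Tgfbrap1, so none was called. Without B6-ChrY SJL pool 3, 1 of 12 was lower at an unadjusted p under 0.05. Over the whole list, pools did not overlap for 4 genes that were lower and 1 that was higher. These were 33.3% and 8.33%, beside 9.42% and 7.68% of all tested transcripts.

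ESCRT, the pathway that HGS starts, showed no gene at an unadjusted p under 0.05 among 26, with a median of −0.02. Chmp2a, Chmp3 and Vps4a, the subunits with the lowest p, were at −0.11, 0.09 and −0.09. The BEACH domain relatives of Wdfy3 and Wdfy4 gave none among 6 genes (median −0.05, Nbeal2 at −0.12, Nsmaf at −0.09 and Lrba at −0.08). The spatacsin and AP-5 partners of ZFYVE26 gave none among 5 (Spg11, spatacsin itself, at −0.12, Ap5s1 at 0.02 and Ap5m1 at −0.01). Selective autophagy gave none among 14 (median 0.01, Atg12 at 0.09, Wipi2 at −0.07 and Map1lc3b at 0.06).

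The TLR3 and TLR4 list had 2 of 8 genes (25.0%) lower at an unadjusted p under 0.05, beside 5.92% of all tested transcripts, none higher, and a median of −0.14. Means of 4 of the 8 genes lay at or below background, and with dim clusters left out the median was −0.06. Without B6 pool 2 it was −0.08. Ticam1, which encodes the adaptor TRIF, had values of 8.66, 8.78 and 8.65 in the B6 pools, against 8.52, 8.47 and 8.48 in the B6-ChrY SJL pools. It was lower without overlap, with a log2 difference of −0.21 (SE 0.07, limma adjusted p = 0.370), opposite in sign to Wdfy1. Ly96, the partner of TLR4 in binding lipopolysaccharide, was at −0.51 (limma adjusted p = 0.321) and Tlr3 at −0.21, but the means of both lay below background.

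To see whether the strain differences of Wdfy1 and Eea1 extended along their chromosomes, the 3 measured genes on each side were read. Beside Wdfy1, Ap1s3 was at 0.09, Mrpl44 at 0.07 and Cul3 at −0.02 on the log2 scale, and none of these passed a limma FDR of 0.05. Scg2 (0.13), Fam124b (−0.07) and Kcne4 (−0.34) lay below background, and the pools of Kcne4 did not overlap (limma adjusted p = 0.361), in the direction opposite to Wdfy1. Beside Eea1, Ube2n was at 0.04, Nudt4 at −0.11 (limma adjusted p = 0.632) and Btg1, an inhibitor of proliferation, at −0.02. 4732465J04Rik (−0.07), Dcn (−0.04) and Lum (0.19) lay below background. The pools of all 6 neighbours of Eea1 overlapped between the strains, as did those of the neighbours of Wdfy1 other than Kcne4.

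**Figure D4:**
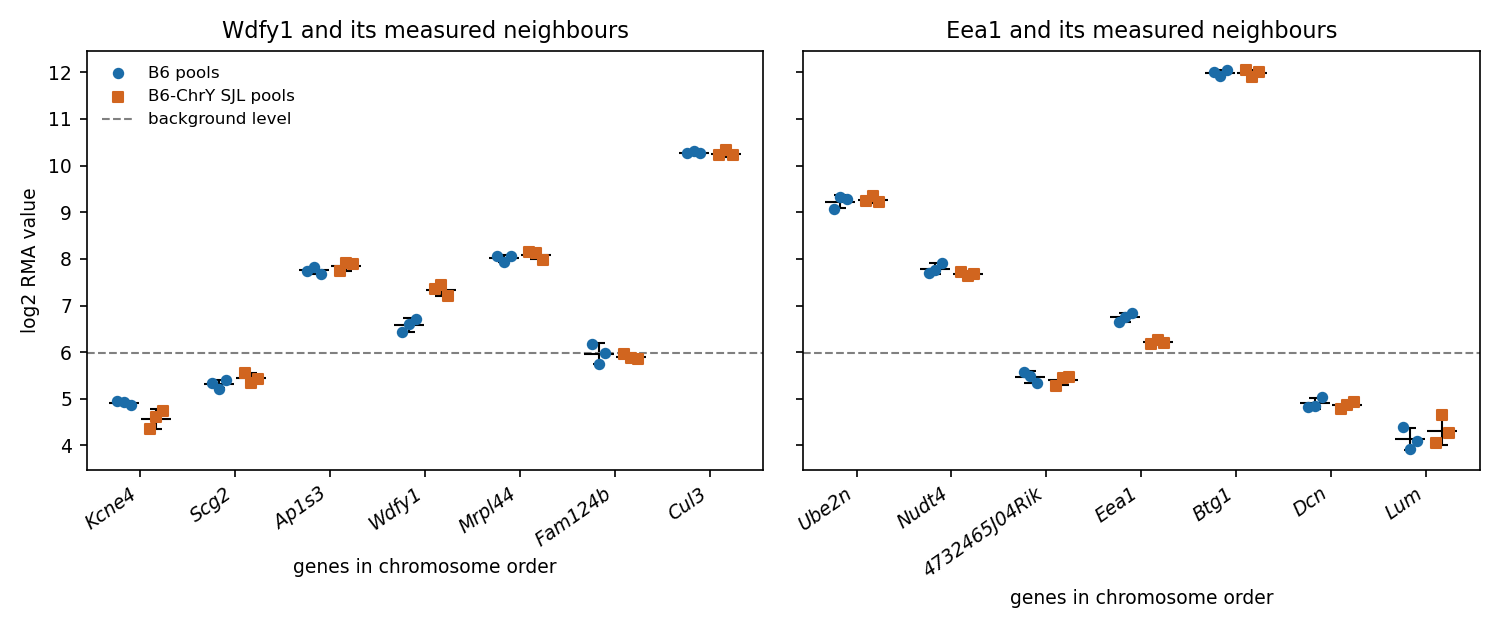
RMA log2 value (vertical axis) of Wdfy1 (left) and Eea1 (right) and of 3 measured genes on each side in chromosome order, with circles for B6 and squares for B6-ChrY SJL, with mean and SD as lines and the background level dashed. Besides Wdfy1 and Eea1, the pools of the strains are separate for Kcne4, which lies below background.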

How the data were processed

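RNA of CD4+TCRβ+ cells, pooled from axillary, brachial and inguinal nodes, was amplified and hybridised to 6 Affymetrix Mouse Gene 1.0 ST arrays. The deposited log2 values were made by the authors with RMA (Partek Genomic Suites) and so are background-corrected and quantile-normalized. GCOS and mm9 stand in the submitters' processing notes too. Clusters were named by the platform annotation, updated through gene identifiers of a RefSeq table (GRCm38.p6). In R 4.3.3, limma 3.58.1 (lmFit and eBayes, without a block, as B6-ChrY SJL minus B6) was fitted over 23410 named clusters with Benjamini-Hochberg adjustment, after testing on simulated data. Pools of a strain are the replicates. An exact two-sided permutation of 3 against 3 pools cannot give a p below 0.1, and the number of arrays limits precision. The members and lists were chosen with earlier results of these data known. Named genes are the members, the 3 smallest p of each list with any FDR under 0.05, 5 genes most like Wdfy1 and Eea1, 3 neighbours on each side, defining markers, and Rab4a and the Rab5 genes. Tgfbrap1 lies outside this rule and was named after its value was seen. Appl2, Ubap1, Rab7a, Traf3 and Ripk1 were not analysed here, and protein sequences were not used here. Alternatives were a variance trend, no moderation, array weights, a filter on dim clusters, all clusters, other scalings, gene means, a replicate block and each pool left out.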

Additional observations from a re-analysis of the deposited data

How the results depend on the processing

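Under the 15 alternatives Wdfy1 stayed at 0.67 to 0.82 and Eea1 at −0.59 to −0.50 on the log2 scale, and their distances from the relatives' median at 0.81 to 0.90 and −0.45 to −0.39. Leaving out each pool in turn gave 0.67 to 0.82 and −0.59 to −0.50. No relative passed an FDR of 0.05 under any of them, while the number at an unadjusted p under 0.05, 1 as reported, was 2 with a variance trend or median-centred arrays, 3 with array weights or the filter on dim clusters, 0 with all deposited clusters, repeated quantile normalization or the replicate block, and 0 to 2 with each pool left out. It was 0 without B6 pool 3 or B6-ChrY SJL pool 3, and 2 without B6-ChrY SJL pool 2. Members without overlap numbered 3 to 5. The list of transcripts past an FDR of 0.1 held Wdfy1 and Eea1 also with array weights, median-centred arrays and gene means. It held Wdfy1 alone of the pair with repeated quantile normalization or without B6 pool 3. It held neither without moderation, with all clusters, with the replicate block or with any other pool left out. With the variance trend or the dim filter both were past 0.05. Both genes were chosen with this contrast in view, so these values are a description and no test. The variance trend also put 1 list gene, Rab4a, past an FDR of 0.05. List genes higher at an unadjusted p under 0.05 numbered 2 without moderation or with repeated quantile normalization, and 1 to 4 with each pool left out, 4 of them without B6 pool 3 and 2 without B6-ChrY SJL pool 3. Wdfy3 turned sign with median-centred arrays (−0.0016), repeated quantile normalization (−0.012) and the mean over clusters (−0.057), and was −0.047 to 0.061 with each pool left out (−0.047 without B6 pool 3, −0.034 without B6-ChrY SJL pool 3). Wdfy4 was −0.014 to 0.093 with each pool left out, negative without B6 pool 2. Pikfyve was −0.11 to 0.0075, at 0.0075 without B6 pool 3 and 0.0045 without B6-ChrY SJL pool 3. The causes were not tested. Over all transcripts, the 4 calls at an FDR of 0.05 became 55 with the trend, 13 with the filter, 11 with median-centred arrays, 8 with gene means, 6 with array weights, 2 with repeated quantile normalization, 0 without moderation or with all clusters, and 0 to 7 with a pool left out. Same-numbered pools did not deviate together over all tested transcripts (r = −0.0001, −0.04 and −0.02). Differently numbered pools were not set beside them, so these values cannot show whether same-numbered pools were handled together. With the replicate block 3 transcripts were called. Wdfy4 lay so near background that its signal limits what can be read from it.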

Other observations

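Among 12300 genes above background, those whose log2 values followed Wdfy1 most closely over the 6 arrays were 3110009E18Rik and Mrps30, a protein of the mitochondrial ribosome, each at Pearson's r = 0.99, then Gm10778 at 0.99 and Usp17lc and Ppy at 0.98. Their own strain differences were smaller than that of Wdfy1, between 0.12 and 0.24 on the log2 scale. All 5 were higher without overlap between the strains, beside 7.68% of all tested transcripts. Those most like Eea1 were Peak1, a pseudokinase of the cytoskeleton, Tulp4, Nucb1, Selenow and Rsf1, a chromatin remodelling subunit, each at r = 1.00 after rounding. Their strain differences ran from −0.26 for Rsf1 to −0.14 for Selenow, again without overlap, beside 9.42% of all tested transcripts. Separate strains largely follow from picking genes by their likeness to Wdfy1 or Eea1. With 6 arrays in 2 strains, r also reflects the strain difference, and among so many genes some values near 1 arise from the search itself, so these are given as values only.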
